A study of Trichoderma reesei with 24 samples.

Results

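In a Δ*nsd3* strain of *Trichoderma reesei*, a group of 93 of 8755 listed genes had more RNA than in WT on every carbon source. The group was defined from the data. In each of 4 conditions a member had a mean log2(TPM + 1) at least 0.8 above WT in the Δ*nsd3* strain, and its lowest Δ*nsd3* library lay above its highest WT library. TPM gives the abundance of a gene's transcripts as a share of all transcripts in a library, corrected for gene length. Since these differences between strains chose the members, they are given below as a description and carry no test. Of the 93 members, 28 lie in a single stretch of neighbouring genes, and *rgs1* and *dpm1* are the only members with a symbol in the RefSeq gene table.

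RNA of mycelia was sequenced in triplicate from the Δ*nsd3* strain and from WT, which gives 8 groups of 3 libraries and 24 libraries in all. The cultures were grown on glucose for 24 h, on glycerol for 24 h, or on cellulose for 8 h or 48 h following a day of pregrowth on glycerol. The WT strain is TU6, a uridine auxotroph that descends from QM9414. The Δ*nsd3* strain was made in TU6 with CRISPR-Cas9 by putting the marker *pyr4* in the place of *nsd3*, and most experiments of the study used a single transformant. The Δ*nsd3* strain therefore carries *pyr4* and WT does not, and the effects of the deletion, of the marker and of the clone cannot be told apart in any comparison between the strains. Uridine was added to cultures when necessary, and which of the cultures for RNA received it is not given in the sources used here. A difference in uridine between the strains could not be told apart from the effects of deletion, marker and clone either.

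Nsd3 is a C2H2 zinc finger transcription factor of the filamentous fungus *Trichoderma reesei*. Its homolog in *Aspergilli*, NsdC, is known from sexual development. *T. reesei* secretes cellulases when cellulose is the carbon source, and it shuts these genes down on glucose. Glycerol neither induces nor strongly represses them, which is why it serves as the pregrowth medium.

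The smallest TPM values stood at whole multiples of what 1 read is worth, which put the depth at 18.2 to 46.2 M reads in 23 libraries. Replicate 3 of Δ*nsd3* on glycerol stood apart at 238 M, with fewer low values on whole reads (61.8%) than the other libraries (75.9% or more, against 20% by chance). Replicates correlated at 0.983 or more across genes in log2(TPM + 1), except replicate 2 of WT at 48 h on cellulose, which correlated at 0.942 and 0.948 with the other two. Leaving out either library kept 90 of the 93 members. *nsd3* (TRIREDRAFT_75672) had 0 to 2.42 TPM in the Δ*nsd3* libraries, against 32.2 to 278 TPM in WT libraries. At the estimated depth, 10 members had fewer than 10 reads in some library, and 1 of them had so few in a Δ*nsd3* library.

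The rule was met by 434 genes on glucose, 969 on glycerol, 921 at 8 h on cellulose and 978 at 48 h. These are 4.96%, 11.1%, 10.5% and 11.2% of all listed genes. Glucose was the condition that removed most genes: 227 genes met the rule in the other 3 conditions, and 93 of them (41.0%) met it on glucose as well. Of the genes that met it in the other 3 conditions, 74.4% did so on glycerol, 81.6% at 8 h and 72.1% at 48 h. Lack of overlap alone was common, since 19.9% of 7933 tested genes on glucose and 48.1% on glycerol had every Δ*nsd3* library above every WT library, as did 23.3% at 8 h and 22.2% at 48 h.

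The median difference of the members was 1.23 on glucose, 1.56 on glycerol, 1.94 at 8 h on cellulose and 1.76 at 48 h, all as log2(TPM + 1). The median of all tested genes was −0.16, 0.29, −0.15 and 0.03 in the same conditions. The difference was largest at 8 h on cellulose in 41 members, at 48 h in 24, on glycerol in 18 and on glucose in 10. It was smallest on glucose in 50 members. The smallest of a member's 4 differences reached 1 in 49 members, 1.5 in 17 and 2 in 5. Together the members took 5.22% to 5.84% of the listed TPM in Δ*nsd3* libraries on glucose, against 2.28% to 2.36% in WT libraries. At 8 h on cellulose they took 5.13% to 6.07% in Δ*nsd3*, against 0.746% to 0.811% in WT. RNA came from whole mycelia, so more RNA per cell and a larger share of cells that hold it cannot be told apart.

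**Figure D1:**
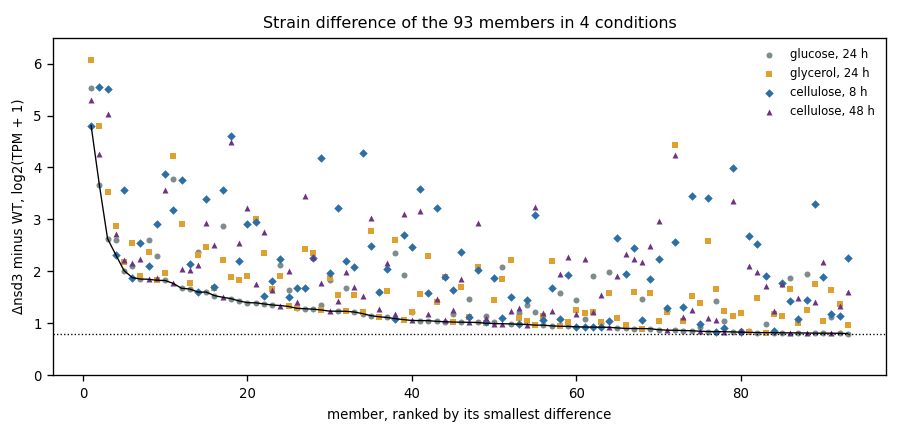
Δ*nsd3* minus WT in mean log2(TPM + 1) for each of the 93 members, ranked by the smallest of the 4 differences (black line); symbols mark the condition and the dotted line the threshold of 0.8. Few members exceed 2 everywhere (5 of 93), and blue diamonds (8 h on cellulose) and purple triangles (48 h) are the highest symbols for 65 members.

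All 93 members passed the filter of at least 1 TPM in at least 3 libraries. The 5 members just inside the threshold were TRIREDRAFT_80425, TRIREDRAFT_102776, TRIREDRAFT_42063, TRIREDRAFT_44175 and TRIREDRAFT_104695, with smallest differences of 0.80 to 0.81. The 5 genes just outside that did not overlap were TRIREDRAFT_62153, TRIREDRAFT_25159, TRIREDRAFT_120057, TRIREDRAFT_103031 and TRIREDRAFT_1927, with 0.77 to 0.79. A further 3 genes had differences of at least 0.8 in all 4 conditions but overlapped in some condition.

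TRIREDRAFT_74020 had the largest smallest difference of all members. On glucose it had 93.2, 112 and 69.9 TPM in Δ*nsd3*, against 1.07, 0.658 and 1.22 TPM in WT. On glycerol it had 176, 122 and 169 TPM in Δ*nsd3*, against 1.15, 1.09 and 1.68 TPM in WT. Its Δ*nsd3* and WT libraries were thus far apart on these media, by 5.53 and 6.08 on the log2 scale. At 8 h on cellulose it had 177, 312 and 213 TPM in Δ*nsd3*, against 9.57, 6.95 and 5.46 TPM in WT, and at 48 h 164, 225 and 281 TPM, against 6.43, 3.55 and 4.17 TPM. The WT libraries were higher on cellulose than on the other media, and the differences of 4.81 and 5.29 were correspondingly smaller. The gene is also the first of the long stretch described below. Which identifier belongs to the marker *pyr4* is not given in the sources used here. A marker gene would be higher in the Δ*nsd3* strain because it was put in, and whether TRIREDRAFT_74020 or another member is that gene was not tested.

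TRIREDRAFT_54616 followed, with differences of 3.67 on glucose, 4.80 on glycerol, 5.54 at 8 h and 4.27 at 48 h. It had 219, 205 and 198 TPM in Δ*nsd3* on glucose, against 17.0, 16.2 and 13.2 TPM in WT. At 8 h on cellulose it had 819, 1449 and 1139.9 TPM in Δ*nsd3*, against 23.2, 21.7 and 23.3 TPM in WT. Its WT level stayed between 13.2 and 59.1 TPM over all 12 WT libraries.

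TRIREDRAFT_4454 came next. On glucose it had 33.9, 37.5 and 34.0 TPM in Δ*nsd3*, against 5.99, 4.80 and 3.90 TPM in WT. At 48 h on cellulose it had 184, 279 and 308 TPM in Δ*nsd3*, against 6.53, 4.92 and 9.14 TPM in WT. Its difference was 2.63 on glucose, 3.53 on glycerol, 5.52 at 8 h and 5.04 at 48 h.

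TRIREDRAFT_81136 was the member with the highest mean TPM in Δ*nsd3* in each condition. It had 9471, 9157 and 10835 TPM in Δ*nsd3* on glucose, against 2724, 2787 and 1867 TPM in WT. At 8 h on cellulose it had 9099, 10388 and 11161 TPM in Δ*nsd3*, against 731, 857 and 1002 TPM in WT. The Δ*nsd3* libraries of all conditions lay between 9099 and 14194 TPM, while WT was lowest at 8 h, where the difference was 3.57, against 2.02 on glucose, 2.17 on glycerol and 2.22 at 48 h.

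**Figure D2:**
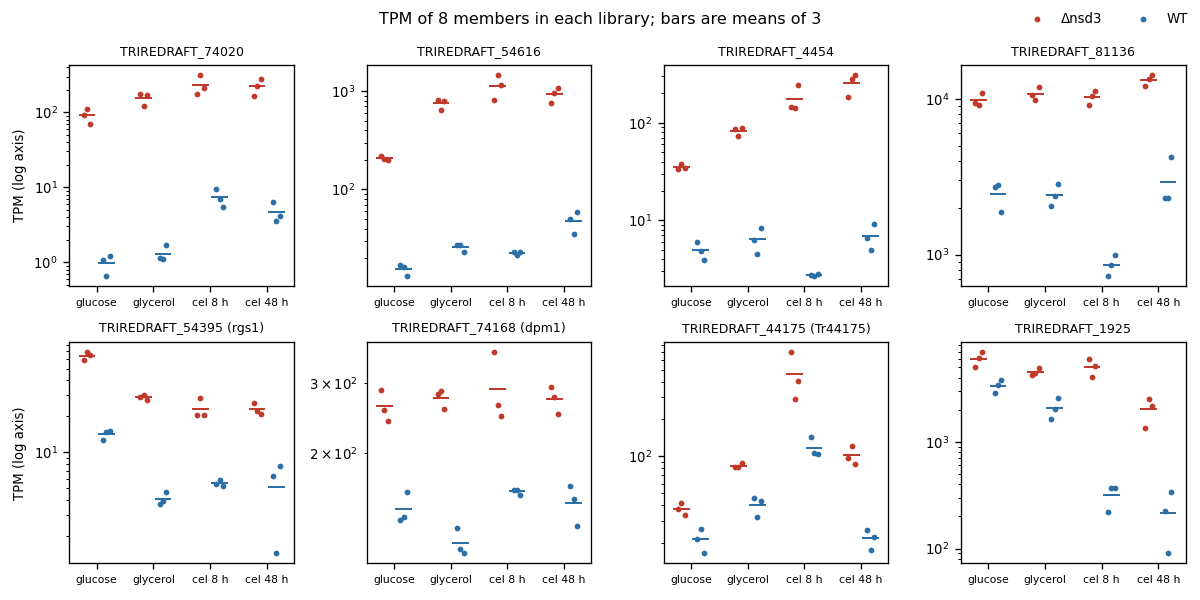
TPM (log axis) of 8 members in the 3 libraries of each group, Δ*nsd3* in red and WT in blue, with bars at the means; conditions run from glucose to 48 h on cellulose. Within each condition red lies above blue, as the rule requires. TRIREDRAFT_74020 is furthest apart on glucose and glycerol. The WT points of TRIREDRAFT_81136 and TRIREDRAFT_1925 are lower at 8 h on cellulose than on glycerol.

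The other members among the 15 with the largest smallest difference were *rgs1*, TRIREDRAFT_108082, TRIREDRAFT_80073, TRIREDRAFT_108081, TRIREDRAFT_122187, TRIREDRAFT_74406, TRIREDRAFT_102904, TRIREDRAFT_59152, TRIREDRAFT_5350, TRIREDRAFT_21198 and TRIREDRAFT_44117. They fell into even and uneven ones. TRIREDRAFT_5350 was even, with differences of 1.66, 1.77, 2.13 and 2.03 from glucose to 48 h on cellulose. TRIREDRAFT_80073 had 499, 506 and 548 TPM in Δ*nsd3* on glucose, against 162, 156 and 115 TPM in WT, and 939, 936 and 992 TPM in Δ*nsd3* at 48 h, against 225, 119.6 and 306 TPM in WT. TRIREDRAFT_102904 was uneven the other way from most members, with 3.77 on glucose, 4.21 on glycerol, 3.19 at 8 h and 1.77 at 48 h. It had 25.7, 30.6 and 26.9 TPM in Δ*nsd3* on glucose, against 0.932, 1.13 and 1.24 TPM in WT, and 107, 77.8 and 90.6 TPM in Δ*nsd3* at 48 h, against 39.3, 12.5 and 35.4 TPM in WT. Over all members, 14 had differences that varied by less than 0.5 between conditions and 19 by more than 2. The widest span was that of TRIREDRAFT_103335, with 0.87 on glucose and 4.42 on glycerol.

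*rgs1* (TRIREDRAFT_54395) encodes a regulator of G protein signalling, a protein class that speeds the return of G protein alpha subunits to their inactive state. On glucose it had 59.9, 68.7 and 65.1 TPM in Δ*nsd3*, against 12.8, 14.7 and 15.1 TPM in WT. On glycerol it had 29.1, 30.2 and 27.4 TPM in Δ*nsd3*, against 3.70, 3.95 and 4.66 TPM in WT. At 8 h on cellulose it had 20.6, 28.7 and 20.6 TPM in Δ*nsd3*, against 5.46, 5.91 and 5.21 TPM in WT, and at 48 h 25.7, 22.2 and 21.1 TPM, against 6.32, 1.44 and 7.63 TPM. Both strains were highest on glucose, and the difference was 2.11, 2.56, 1.88 and 2.16 from glucose to 48 h.

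Of the other 6 genes of G protein and protein kinase A signalling with a symbol, none was a member. *gna2*, a G protein alpha subunit, was upregulated in Δ*nsd3* on glycerol (log2 FC 1.53, adjusted p = 0.00090, limma), at 8 h (log2 FC 1.0, adjusted p = 0.015) and at 48 h on cellulose (log2 FC 1.65, adjusted p = 0.00038), and its log2 FC on glucose was 0.54 (adjusted p = 0.20). *gna3* was upregulated at 48 h alone (log2 FC 1.33, adjusted p = 0.0027), and *pkac2*, a catalytic subunit of protein kinase A, on glycerol alone (log2 FC 1.14, adjusted p = 0.00093), where its difference was 0.85 when libraries were scaled by the median of ratios and 0.75 after quantile normalization. *gna1*, *pkac1* and *pkar1* passed the threshold of 1 in no condition. No gene of the list was downregulated beyond it. With *rgs1* included, the median of the 7 genes was −0.29 on glucose, 0.63 on glycerol, −0.06 at 8 h and 0.62 at 48 h. Since these differences chose *rgs1*, nothing is read from that median. Of all tested genes, 3.14%, 7.39%, 9.13% and 9.29% were upregulated in Δ*nsd3* on glucose, on glycerol, at 8 h and at 48 h, and 6.45%, 3.1%, 8.11% and 4.16% were downregulated.

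*dpm1* (TRIREDRAFT_74168) encodes dolichol phosphate mannose synthase, which makes the mannose donor for glycosylation in the endoplasmic reticulum. It had 289, 257 and 241 TPM in Δ*nsd3* on glucose, against 136, 139 and 160.4 TPM in WT, and 282, 287 and 258 TPM in Δ*nsd3* on glycerol, against 129.7, 115 and 112 TPM in WT. After 8 h on cellulose it had 359, 264 and 248 TPM in Δ*nsd3*, against 162, 162 and 157 TPM in WT, and at 48 h 293, 278 and 251 TPM, against 166, 153 and 132 TPM. Its differences of 0.85, 1.21, 0.83 and 0.86 were among the smallest and most even of the group, and it left the group after quantile normalization, with 0.74 at 8 h and 0.69 at 48 h. The 2 other genes of the pathway with a symbol, *mpg1* (GDP-mannose pyrophosphorylase) and *pmt1* (a protein O-mannosyltransferase), had log2 FCs between −0.52 and 0.49 and passed the threshold of 1 in no condition.

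Tr44175 (TRIREDRAFT_44175) is a transporter of cellobiose and sophorose, sugars that are released or formed when cellulose is degraded. On glucose it had 37.4, 41.9 and 33.4 TPM in Δ*nsd3*, against 21.5, 25.9 and 16.4 TPM in WT, and was close to the limit of the rule. After 8 h on cellulose it had 692, 293 and 406 TPM in Δ*nsd3*, against 143, 105 and 103 TPM in WT. At 48 h it had 97.4, 121 and 86.4 TPM in Δ*nsd3*, against 25.3, 17.4 and 22.2 TPM in WT. Its differences were 0.81, 1.05, 1.90 and 2.18 from glucose to 48 h. On glycerol it was 0.70 with the median of ratios and 0.77 after quantile normalization, under the limit of 0.8 in both. The study reports Tr44175 and Crt1, which carries the same sugars, as upregulated in all conditions it analysed. *crt1* is not on the short list used here, so its values are not given. Of 4 other sugar transporters with an identifier, *hxt1* was upregulated in Δ*nsd3* on glucose (log2 FC 2.99, adjusted p = 6.1e-10, limma), with a mean of 19.5 TPM, against 1.60 TPM in WT. *hxt1* had log2 FCs of −0.66 on glycerol, 0.09 at 8 h and 0.60 at 48 h, and the value at 8 h turned to −0.02 after quantile normalization. *glt1*, *lac1* and Tr67752 (TRIREDRAFT_67752) passed the threshold of 1 in no condition. *lac1* had a mean of 0.03 TPM in both strains on glucose, and 0.107 TPM in Δ*nsd3* and 0 in WT on glycerol. Tr67752 had means of 0.951 TPM in Δ*nsd3* and 0.421 TPM in WT on glucose. At these levels a difference of 1 in log2(TPM + 1) is out of reach, so the threshold says nothing there. From counts, the study reports *lac1* among the most upregulated genes on glycerol and Tr67752 as upregulated on glucose. In its analysis of characterized transporters, centred on glucose and cellulose, the study also lists *lac1* as unaffected by the deletion.

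Members were not spread evenly along the genome. The RefSeq table names no sequences, so a new sequence was taken to begin wherever the start position dropped. Whether this joined separate sequences was not tested. In the gene order of the table, TRIREDRAFT_74020 to TRIREDRAFT_103028 form a stretch of 212 genes on the first sequence. Of these, 199 were tested and 28 are members. The stretch holds 2.51% of the tested genes and 30.1% of the members. Of its tested genes 14.1% are members, against 0.840% of the tested genes elsewhere. On the rest of the same sequence 19 of 710 tested genes are members (2.68%), and on the other sequences 46 of 7024 (0.655%). The stretch was found and bounded after the values had been seen, so it carries no test. A running median of 25 genes had to be at least 0.4 above the median of all tested genes in every condition. Places that met this were joined across gaps of up to 40 genes, so the stretch need not meet it throughout. Its last 25 tested genes had a median 0.26 above that of all tested genes at 48 h. A second, short stretch of 12 genes, TRIREDRAFT_73587 to TRIREDRAFT_73594, holds 1 member.

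**Figure D3:**
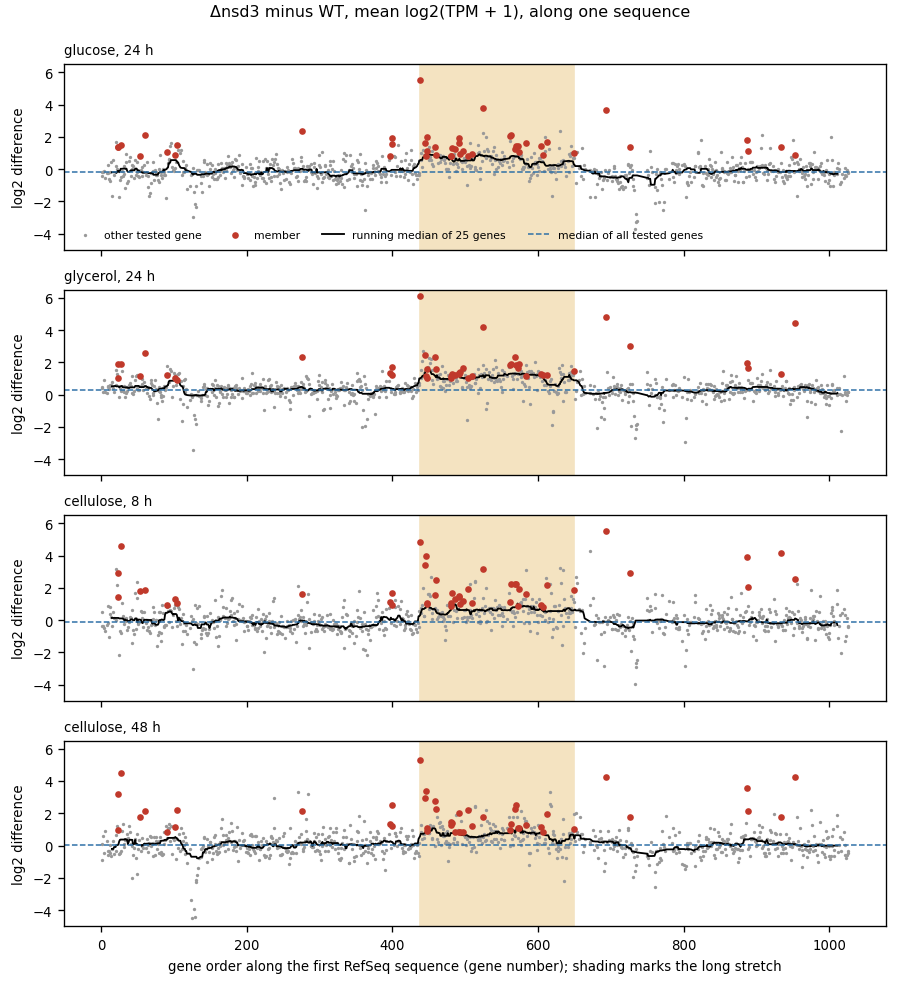
Δ*nsd3* minus WT in mean log2(TPM + 1) against gene order on the first sequence, as inferred from start positions, with 1 panel per condition. Members are red and other tested genes grey. The black line is the running median of 25 genes and the dashed line the median of all tested genes. In all 4 panels the black line lies above the dashed line through the shaded stretch, whose left edge is TRIREDRAFT_74020.

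The difference was not limited to the members there. The 171 other tested genes of the stretch had median differences of 0.51 on glucose, 1.04 on glycerol, 0.56 at 8 h and 0.57 at 48 h. Genes outside the stretch had medians of −0.17, 0.29, −0.16 and 0.02 in the same conditions. The stretch was thus higher by 0.68, 0.75, 0.72 and 0.55 than the rest of the genes. Of the 171 genes, 91.2% on glucose, 88.3% on glycerol, 90.1% at 8 h and 83.6% at 48 h lay above the median of all tested genes, and 69.0% did so in all 4 conditions, against 13.9% of the genes outside the stretch.

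The differences stepped up at the left edge. Both edges were placed from these same differences, so a step there is a description and carries no test. The genes inside the left edge include TRIREDRAFT_44117, TRIREDRAFT_1925, TRIREDRAFT_119757 and TRIREDRAFT_53239, members that the rule holds at 0.8 or more. The 10 tested genes before TRIREDRAFT_74020 had median differences of −0.33 on glucose, 0.39 on glycerol, −0.35 at 8 h and −0.15 at 48 h, and the 10 tested genes after it had 0.93, 1.46, 0.99 and 0.87. The first 25 tested genes of the stretch had medians of 0.90, 1.53, 0.95 and 0.82, and the last 25 had 0.48, 1.03, 0.65 and 0.29. The step at the right edge was less clear, since the 25 genes that follow had −0.15 on glucose and 0.07 on glycerol but 0.38 at 48 h. TRIREDRAFT_71399, the gene directly after the end, is a member itself.

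The raised stretch can also be described per library. Its bounds came from these same libraries, and each WT library enters the WT mean it is set against. The values therefore carry no test and show only the spread between libraries. With every library set against the WT mean of its condition, the median of the 171 genes less that of the genes outside was 0.69 to 0.71 in the Δ*nsd3* libraries on glucose, against −0.01 in each of the WT libraries. On glycerol it was 0.76 to 0.81 in Δ*nsd3*, against −0.01 to 0.01 in WT. After 8 h on cellulose it was 0.65 to 0.76 in Δ*nsd3*, against −0.03 to 0.02 in WT, and at 48 h 0.52 to 0.63, against −0.06 to 0.09. As folds, the Δ*nsd3* values span 1.43 to 1.76. No DNA of these strains was analysed here, and no cause of the pattern was tested.

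**Figure D4:**
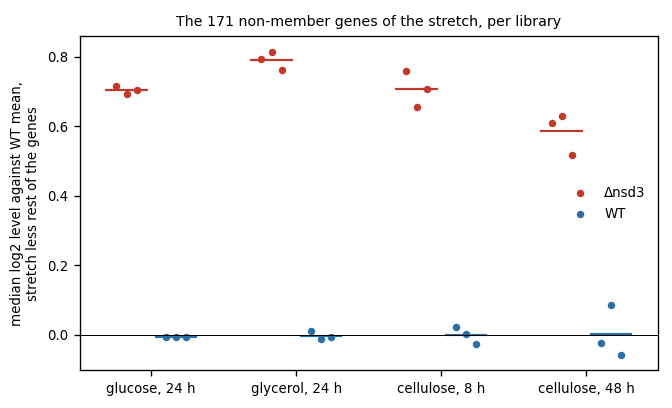
Median log2 level, against the WT mean of the condition, of the 171 genes of the stretch that are no members, less that of the tested genes outside it, for each Δ*nsd3* (red) and WT (blue) library, with bars at the means of 3. The Δ*nsd3* libraries lie between 0.52 and 0.81 and the WT libraries between −0.06 and 0.09. The stretch was bounded from these same libraries, so the values are a description.

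The 28 members of the stretch differed in how far they exceeded its height over the other genes. After the 0.68, 0.75, 0.72 and 0.55 of the stretch were taken off, 3 of them were still 0.8 or more above WT in all 4 conditions. These were TRIREDRAFT_74020, TRIREDRAFT_102904 and TRIREDRAFT_44117. In 7 the remainder was under 0.8 in every condition, among them *dpm1* with 0.17 on glucose, 0.45 on glycerol, 0.11 at 8 h and 0.32 at 48 h. For Tr44175 the remainder was 0.13 on glucose and 0.30 on glycerol, but 1.18 at 8 h and 1.63 at 48 h. For TRIREDRAFT_1925 it was 0.15 on glucose and 0.39 on glycerol, and 3.28 at 8 h and 2.80 at 48 h on cellulose. The remainder is taken against WT, not against the median of the other genes of the stretch.

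TRIREDRAFT_44117, TRIREDRAFT_1925, TRIREDRAFT_119757 and TRIREDRAFT_53239 are 4 members in a row. TRIREDRAFT_1925 had 5015, 6094 and 6873 TPM in Δ*nsd3* on glucose, against 2893, 3381 and 3784 TPM in WT. After 8 h on cellulose it had 5999.6, 4018 and 5130.1 TPM in Δ*nsd3*, against 222, 366 and 372 TPM in WT. Its neighbour TRIREDRAFT_119757 was the most even member of all, with 1.14, 1.0, 1.02 and 1.11 from glucose to 48 h. On glucose it had 188, 228 and 204 TPM in Δ*nsd3*, against 93.2, 94.8 and 90.7 TPM in WT. TRIREDRAFT_44117 resembled TRIREDRAFT_1925, with 1.60 on glucose and 3.39 at 8 h, while TRIREDRAFT_53239 ran the other way, with 1.99 on glucose and 0.92 at 48 h.

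The stretch held other members side by side. TRIREDRAFT_119768, TRIREDRAFT_53562 and TRIREDRAFT_1947 form a row, as do TRIREDRAFT_102871, TRIREDRAFT_21278 and TRIREDRAFT_21279, and TRIREDRAFT_102941 with TRIREDRAFT_28928 and TRIREDRAFT_1992 with TRIREDRAFT_53561 are pairs. Outside it there were 5 pairs: TRIREDRAFT_42193 with TRIREDRAFT_37262, TRIREDRAFT_102778 with TRIREDRAFT_102779, TRIREDRAFT_74406 with TRIREDRAFT_74409, TRIREDRAFT_108081 with TRIREDRAFT_108082, and TRIREDRAFT_81136 with TRIREDRAFT_5377. TRIREDRAFT_108082 had 416, 455 and 402 TPM in Δ*nsd3* on glucose, against 66.9, 70.6 and 68.5 TPM in WT, and its neighbour TRIREDRAFT_108081 had 65.5, 48.8 and 58.2 TPM in Δ*nsd3*, against 8.83, 8.46 and 8.23 TPM in WT. Their differences were alike on glucose, at 2.61 each, and at 48 h they were 2.71 and 1.85. TRIREDRAFT_5377, next to TRIREDRAFT_81136, had 159.8, 197 and 218 TPM in Δ*nsd3* at 8 h, against 36.9, 31.7 and 39.2 TPM in WT. Whether reads of a gene were counted for its neighbour was not tested. Of the direct neighbours of *nsd3* in the table's gene order, TRIREDRAFT_104664 is not among the listed genes and could not be a member. TRIREDRAFT_120566 is no member, with differences of −0.07 on glucose, −0.43 on glycerol, 1.29 at 8 h and 1.53 at 48 h.

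Changes within a strain, from glucose to glycerol, from glycerol to 8 h on cellulose and from 8 h to 48 h on cellulose, were tested with limma over 7933 genes, where a DEG needed an adjusted p-value under 0.05 and a log2 FC of 1 or more in either direction. The rule compares strains and does not use these changes, but it uses the same libraries and keeps genes that are high in Δ*nsd3* and low in WT in each condition. The counts of members are therefore a description, and nothing is read from how they differ from those of all tested genes. The study reports triplicates for each sample and condition. Whether these were separate cultures is not stated in the sources used here, so p-values measure the spread between these libraries. In all, 61 members were DEGs in at least 1 of 6 such comparisons and 32 in none, 12 of which lie in the stretch. Of all tested genes, 56.4% were DEGs in at least 1.

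With glycerol in place of glucose, 13 members were upregulated and 19 downregulated in Δ*nsd3*. Of all tested genes 17.7% were upregulated and 7.19% downregulated in Δ*nsd3*. In WT 2 members were upregulated and 22 downregulated, against 8.72% and 13.4% of all tested genes. As shares of the members these are 14.0% and 20.4% in Δ*nsd3*, and 2.15% and 23.7% in WT. Scaling by the median of ratios gave 7 upregulated and 30 downregulated members in Δ*nsd3*, and 5 upregulated in WT. The shares of all tested genes under this scaling are not given here, so these counts have no background. Downregulation was shared by both strains in 13 members, among them *rgs1* and TRIREDRAFT_5350, and in 5.46% of all tested genes. TRIREDRAFT_81525 fell most in Δ*nsd3* (log2 FC −3.57, SE 0.36, adjusted p = 2.4e-08) and in WT (log2 FC −3.95, SE 0.36, adjusted p = 4.4e-09). It had 198, 235 and 191 TPM on glucose and 18.5, 15.8 and 15.5 TPM on glycerol in Δ*nsd3*. TRIREDRAFT_3568 was second in both strains, with a log2 FC of −3.08 in Δ*nsd3* and −3.41 in WT. Next came TRIREDRAFT_34297 in Δ*nsd3* (−2.27) and TRIREDRAFT_123149 in WT (−2.62).

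The largest rise on glycerol was that of TRIREDRAFT_103335 in Δ*nsd3* (log2 FC 3.70, SE 0.33, adjusted p = 3.4e-09), which had 35.2, 23.4 and 36.4 TPM on glycerol and 1.57, 1.35 and 1.49 TPM on glucose. Its WT libraries had 0.318, 0.428 and 0.776 TPM on glycerol and 0.650, 0 and 0.505 TPM on glucose. TRIREDRAFT_123475 rose in both strains, with a log2 FC of 2.62 in Δ*nsd3* and 1.56 in WT. TRIREDRAFT_75027 was the third in Δ*nsd3* (2.11). TRIREDRAFT_46764 was first in WT (log2 FC 2.40, SE 0.34, adjusted p = 2.7e-06), and it was also upregulated in Δ*nsd3*.

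On transfer from glycerol to cellulose, 17 members were upregulated and 5 downregulated at 8 h in Δ*nsd3*, 18.3% and 5.38% of the members, against 8.87% and 2.03% of all tested genes. In WT 5 were upregulated and 16 downregulated, 5.38% and 17.2%, against 20.9% and 5.03% of all tested genes. Scaling by the median of ratios gave 3 upregulated and 31 downregulated members in WT, and a pseudocount of 0.1 gave 10 upregulated. Again the shares of all tested genes under these settings are not given. The median log2 FC of the members was 0.27 in Δ*nsd3* and −0.05 in WT, and that of all tested genes was 0.03 in Δ*nsd3* and 0.49 in WT. The count of 17 in Δ*nsd3* rested in part on replicate 3 at 8 h, without which it was 8, and it was 11 after quantile normalization. No member was downregulated in Δ*nsd3* and upregulated in WT. TRIREDRAFT_73519 and TRIREDRAFT_79671, named after their values were seen, were upregulated in Δ*nsd3* and downregulated in WT. The rule favours the latter pattern, and the shares of all tested genes called in either pattern are not given here, so nothing is read from this. The difference of the response between the strains is a difference of the values that chose the members, so it was not tested.

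Tr44175 rose most in Δ*nsd3* (log2 FC 2.36, SE 0.24, adjusted p = 4.6e-08), with 692, 293 and 406 TPM at 8 h and 81.6, 81.8 and 87.9 TPM on glycerol. It was also upregulated in WT, with 143, 105 and 103 TPM at 8 h and 45.5, 32.0 and 43.6 TPM on glycerol. TRIREDRAFT_59152 (1.81) and TRIREDRAFT_49898 (1.72) followed in Δ*nsd3*. TRIREDRAFT_103335 (−1.64), TRIREDRAFT_102837 (−1.41) and TRIREDRAFT_123475 (−1.29) fell most there. In WT the largest rises were those of TRIREDRAFT_102904 (log2 FC 2.03, SE 0.26, adjusted p = 1.1e-06), TRIREDRAFT_74020 (1.83) and TRIREDRAFT_109538 (1.72).

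The largest falls in WT at 8 h were those of TRIREDRAFT_1925 (log2 FC −2.71, SE 0.33, adjusted p = 5.0e-07), TRIREDRAFT_74406 (−2.34) and TRIREDRAFT_34297 (−2.29). TRIREDRAFT_1925 had 222, 366 and 372 TPM at 8 h in WT, against 1622, 2028 and 2590.2 TPM on glycerol. TRIREDRAFT_74406 had 23.7, 29.8 and 28.5 TPM at 8 h in WT, against 108, 130.0 and 203 TPM on glycerol, and its Δ*nsd3* libraries had 328, 327 and 660.4 TPM at 8 h and 553, 611 and 519 TPM on glycerol. TRIREDRAFT_81136 was downregulated in WT as well and was no DEG in Δ*nsd3*. Of the 16 members downregulated in WT, 2 were downregulated in Δ*nsd3* too, which were TRIREDRAFT_123149 and TRIREDRAFT_123475, as were 0.87% of all tested genes in both strains.

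**Figure D5:**
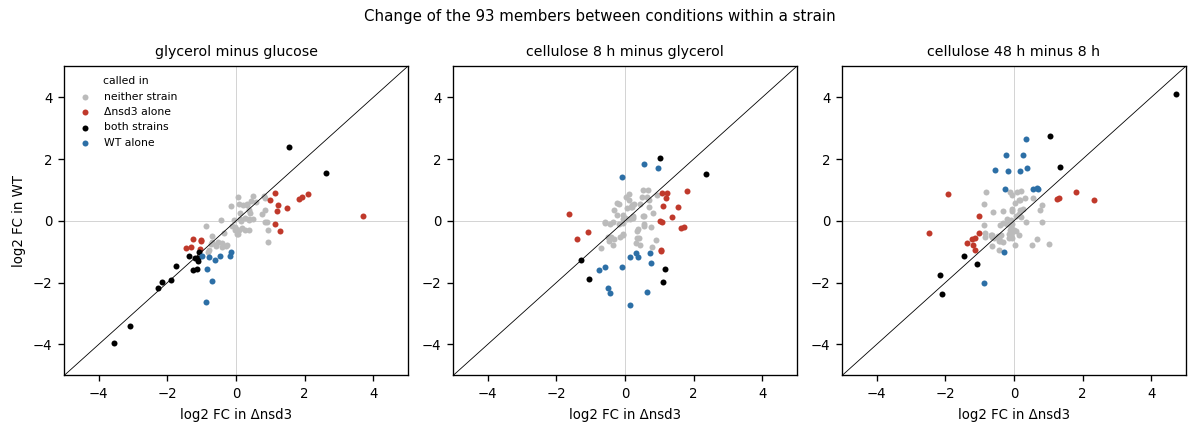
Log2 FC of each of the 93 members between conditions, in Δ*nsd3* (horizontal axis) and WT (vertical axis), coloured by the strain in which it was a DEG; the diagonal marks equal values. In the middle panel (8 h on cellulose against glycerol) 13 members were upregulated in Δ*nsd3* alone and 12 downregulated in WT alone, as were 2.45% and 4.02% of all tested genes.

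From 8 h to 48 h on cellulose, 7 members were upregulated and 13 downregulated in Δ*nsd3*, 7.53% and 14.0% of the members, against 4.6% and 4.26% of all tested genes. In WT 14 were upregulated and 6 downregulated, 15.1% and 6.45%, against 6.42% and 9.35% of all tested genes. The WT counts depended on replicates of WT at 48 h. Without replicate 2 or without replicate 3, the downregulated members numbered 3 and 11. TRIREDRAFT_4240 rose most in both strains. It had 133, 108 and 118 TPM at 48 h and 3.84, 2.35 and 4.76 TPM at 8 h in Δ*nsd3* (log2 FC 4.72, SE 0.23, adjusted p = 2.1e-13). In WT it had 16.8, 23.8 and 21.2 TPM at 48 h and 0.166, 0.416 and 0.203 TPM at 8 h (log2 FC 4.09, SE 0.23, adjusted p = 2.2e-12). TRIREDRAFT_103335 (2.34) and TRIREDRAFT_123475 (1.82) followed in Δ*nsd3*, and TRIREDRAFT_59152 (2.74) and TRIREDRAFT_123149 (2.66) in WT.

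Tr44175 and TRIREDRAFT_55561 were among the 3 largest falls from 8 h to 48 h in both strains. For Tr44175 the log2 FC was −2.10 in Δ*nsd3* and −2.38 in WT, and for TRIREDRAFT_55561 it was −2.16 in Δ*nsd3* and −1.75 in WT. TRIREDRAFT_123795 fell most in Δ*nsd3* (log2 FC −2.47, SE 0.26, adjusted p = 1.5e-07), and its log2 FC in WT was −0.39. TRIREDRAFT_53238 was second in WT (log2 FC −2.00, SE 0.38, adjusted p = 0.00025), where its libraries at 48 h had 12.2, 1.75 and 13.7 TPM, with replicate 2 far below the others. Without that replicate its log2 FC was −1.22, and in a fit of only the 6 libraries compared the fall did not pass the test (adjusted p = 0.067, limma).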

How the data were processed

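RNA of 2 strains in 4 conditions was sequenced with a poly(A) library kit that keeps the strand. Trim Galore 0.6.7, HISAT2 2.2.1 and featureCounts served the authors for trimming, mapping and counting, and DESeq2 for their comparisons. The values in the deposited table are TPM, which the authors calculated for 8755 genes and 24 libraries. It has no counts, so their model was not repeated. TPM is a share of the total, so a change of abundant genes moves the values of all others. The strand setting of the counting is not given in the sources used here.

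TPM was set to log2(TPM + 1), a scale that understates the change of genes with low TPM. The rule was applied to all 8755 genes. The 24 libraries entered a single limma fit of group means, with an intensity trend in eBayes, on 7933 genes that reached 1 TPM in 3 or more libraries. Two-sided p-values were corrected for all of these genes by the method of Benjamini and Hochberg. Exact permutation of 3 libraries against 3 cannot go below 0.1 and was not used. In simulated data of 7933 genes, 92 to 98 of 100 genes changed by 1.5 (log2) were called. Of 100 genes changed by 2.5, 99 to 100 were called, with 1 to 2 false calls per comparison. The changed genes were drawn from genes well above the filter, with normal noise of equal spread in every group. These rates therefore do not cover genes with low TPM or a group with an outlying library. Depth came from the size of the smallest steps in TPM, with gene lengths from RefSeq, and a value counted as whole within 0.1 read. With no read in a library, up to 3 are possible by counting error alone.

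The members, lists, rules and tests were chosen with earlier results of these data known. Named were members with a symbol or named in the study, the 15 with the largest smallest difference, 5 just inside and 5 just outside the threshold, members next to another member, and the 3 largest rises and falls per comparison within a strain. The gene order, symbols and lengths came from a RefSeq gene table (assembly v2.0 of QM6a), in which 8750 genes were found. Stretches were joined across gaps of up to 40 genes. That table holds no product text and no sequences, so planned lists by product words and a search for motifs in promoters were not run, and short lists by symbol took the place of the word lists. Alternatives were a pseudocount of 0.1 or 5, other filters, quantile normalization, the median of ratios, a fit restricted to the 6 libraries of a comparison, a replicate block, no trend in eBayes, and each library left out. Python 3.11.15, numpy 2.4.6, pandas 2.3.3, matplotlib 3.10.9, R 4.3.3 and limma 3.58.1 were used.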

Additional observations from a re-analysis of the deposited data

Results flagged for a closer look

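In 10 named members every Δ*nsd3* library moved in the opposite direction to every WT library between conditions. On transfer from glycerol to 8 h on cellulose, the response of TRIREDRAFT_79671 was 1.11 in Δ*nsd3* and −1.97 in WT, a difference of 3.08 on the log2 scale. For TRIREDRAFT_34297 it was 0.63 in Δ*nsd3* and −2.29 in WT, a difference of 2.92. TRIREDRAFT_73519 had 1.16 in Δ*nsd3* and −1.56 in WT, a difference of 2.72. For TRIREDRAFT_4454 it was 1.04 in Δ*nsd3* and −0.95 in WT, a difference of 1.99. TRIREDRAFT_81525 had 0.74 in Δ*nsd3* and −1.05 in WT, a difference of 1.79. For TRIREDRAFT_46764 it was 0.79 in Δ*nsd3* and −0.84 in WT, a difference of 1.63. TRIREDRAFT_21279 moved the other way, with −0.23 in Δ*nsd3* and 0.18 in WT, a difference of −0.41. On glycerol against glucose, TRIREDRAFT_5377 had 0.38 in Δ*nsd3* and −0.29 in WT, a difference of 0.67. From 8 h to 48 h on cellulose, TRIREDRAFT_102837 had 0.66 in Δ*nsd3* and −0.58 in WT, a difference of 1.23, and TRIREDRAFT_28928 had −0.60 in Δ*nsd3* and 0.30 in WT, a difference of −0.90. These differences between the strains were not tested, since the values that chose the members enter them.

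Over all 93 members, 12 (12.9%) were higher at 8 h than on glycerol in every Δ*nsd3* library and lower in every WT library, and 1.49% of all tested genes were. The opposite pattern was seen in 2 members (2.15%) and in 5.81% of all tested genes. From glucose to glycerol 4 members (4.30%) were higher in Δ*nsd3* and lower in WT, and 7.63% of all tested genes were. The rule keeps genes that are higher in Δ*nsd3* than in WT at 8 h, which favours the first pattern, so nothing is read from these shares.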

How the results depend on the processing

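The rule gave 114 genes with a pseudocount of 0.1, which held all 93 members, 59 with a pseudocount of 5 and 49 at a difference of at least 1. Rescaling by the median of ratios gave 79, of which 63 were members (21 of the stretch and 42 elsewhere), and quantile normalization gave 81, of which 71 were members. The 15 members with the largest smallest difference met the rule in each of these. Rescaling moved the median of all tested genes from −0.16 to 0.00 on glucose and from 0.29 to −0.01 on glycerol, where 73 of the 93 members then had a difference of at least 0.8. With each library left out the rule gave 84 to 98 genes. The added alternatives on the stretch, chosen after seeing the data, moved its difference from the other genes to 0.80 on glucose, 0.89 on glycerol, 0.81 at 8 h and 0.64 at 48 h with a pseudocount of 0.1, and to 0.47, 0.60, 0.52 and 0.37 with a pseudocount of 5. On glucose it was 0.71 with the median of ratios and 0.64 after quantile normalization. With each library left out it was 0.67 to 0.70 on glucose, 0.75 to 0.80 on glycerol, 0.70 to 0.75 at 8 h and 0.52 to 0.64 at 48 h.

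From glucose to glycerol, WT had 5 upregulated members with a pseudocount of 0.1 and 5 with the median of ratios, in place of 2. In Δ*nsd3* there were 7 upregulated with the median of ratios and 7 after quantile normalization, in place of 13, and 30 downregulated with the median of ratios, in place of 19. At 8 h against glycerol, WT had 10 upregulated with a pseudocount of 0.1, 3 with the median of ratios and 3 after quantile normalization, in place of 5, and 31 downregulated with the median of ratios, in place of 16. Δ*nsd3* had 11 upregulated after quantile normalization, in place of 17. From 8 h to 48 h, WT had 2 downregulated with a pseudocount of 5 and 2 in a fit of only the 6 libraries compared, in place of 6. The causes were not tested. Shares of all tested genes under the alternatives, or with a library left out, are not given in any section. Such counts of members are set only against the main counts, and nothing is read from them about the members.

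With each library left out, upregulated members numbered 5 to 9 in WT and 8 to 16 in Δ*nsd3* at 8 h against glycerol, where 9 came without replicate 1 of WT on glycerol, 8 in WT without its replicate 2 at 8 h, and 8 in Δ*nsd3* without its replicate 3 at 8 h. Downregulated members numbered 3 to 5 in Δ*nsd3* at this step, with 3 without replicate 3 of Δ*nsd3* on glycerol, and 3 to 11 in WT from 8 h to 48 h. Of 35 named responses, 4 lost their call under 1 alternative each and none changed sign. Replicate numbers did not pair the libraries, since no comparison had all 3 correlations of same-numbered libraries above 0.1. With the replicate block, 16 members were upregulated in Δ*nsd3* at 8 h against glycerol in place of 17, and the other 11 counts of DEGs were equal to those without it. Depth limits 10 members with fewer than 10 reads in some library.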
